A study of Drosophila melanogaster with 596 samples.

Results

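The proteins of the large subunit of the cytosolic ribosome are encoded in Drosophila melanogaster by a set of genes named RpL and RpLP. A list of 48 such genes was matched to the deposited table by gene number, with the transcripts of a gene averaged, and 42 of the 48 had values, out of 7422 genes in all. The 6 without a row in the table used here were RpL4, RpL8, RpL15, RpL29, RpL38 and RpLP2, and they were not analysed. Total RNA came from heads of females aged 3 to 5 days, about 300 heads pooled per cross, hybridised to NimbleGen arrays. The females were the trans-heterozygous F1 of lines of the Drosophila Synthetic Population Resource (DSPR), recombinant inbred lines in which every genome is a mosaic of inbred founders. There were 596 crosses. In 63.4% of them a pA1 mother was crossed to a pB2 father, and in the other 36.6% a pA2 mother was crossed to a pB1 father. Flies of both kinds of cross were raised on standard food under standard conditions, received no treatment, and were very likely mated.

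The large subunit joins amino acids in its peptidyl transferase centre and releases the new chain through an exit tunnel. Its proteins are needed in equal numbers, one of each per ribosome for nearly all of them, and flies that lack a copy of many of these genes develop slowly and have thin bristles, the Minute phenotype. Ribosomal protein mRNAs are among the most abundant in a cell, and head tissue, with its neurons, photoreceptors, glia, fat body and muscle, uses them throughout.

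Each cross had 1 set of values in the table, and the few that the study prepared again had no second set in it, so all statements rest on the spread over crosses, and the p-values measure only that spread. The values are scores: normal-quantile residuals from which the authors had removed subpopulation and the first 10 principal components. Levels are therefore gone, the markers of head cell types cannot be checked as levels, and a score says only whether a gene stood high or low in a cross relative to other crosses. None of the 6 ovary and germ line markers listed had a row in the table used here. In pooled heads, fewer cells of a type and less RNA per cell cannot be told apart. By construction every single row had nearly the same range, and the 42 genes lay between -3.15 and 3.15. Averages over several rows were narrower for RpL3, from -2.54 to 2.19, and for RpL5, from -2.49 to 2.92. For RpL10Ab the average ran from -3.15 to 2.73, so only its upper end was narrower. None of the 42 genes had the same values as another gene of the table, and the largest difference between the means of the 2 subpopulation crosses was 0.0488.

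The large subunit genes varied together across crosses. Over the 861 pairs of the 42 genes the median Pearson r was 0.257 ± 0.0132 (SE from resampled crosses), with quartiles of 0.164 and 0.340 and a range from -0.166 to 0.567. Over all pairs of genes in the table the median r was 0.0033, and the 5th and 95th percentiles were -0.135 and 0.15. After permutation of the table and Benjamini-Hochberg adjustment over all 27539331 pairs, 740 of the 861 pairs (85.9%) had a positive correlation at an adjusted p under 0.05, where 11.8% of all gene pairs did. Only 2 of the 861 pairs were called negative, where 9.56% of all gene pairs were, and 13.8% were not called. The smallest absolute r that passed was 0.105.

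**Figure D1:**
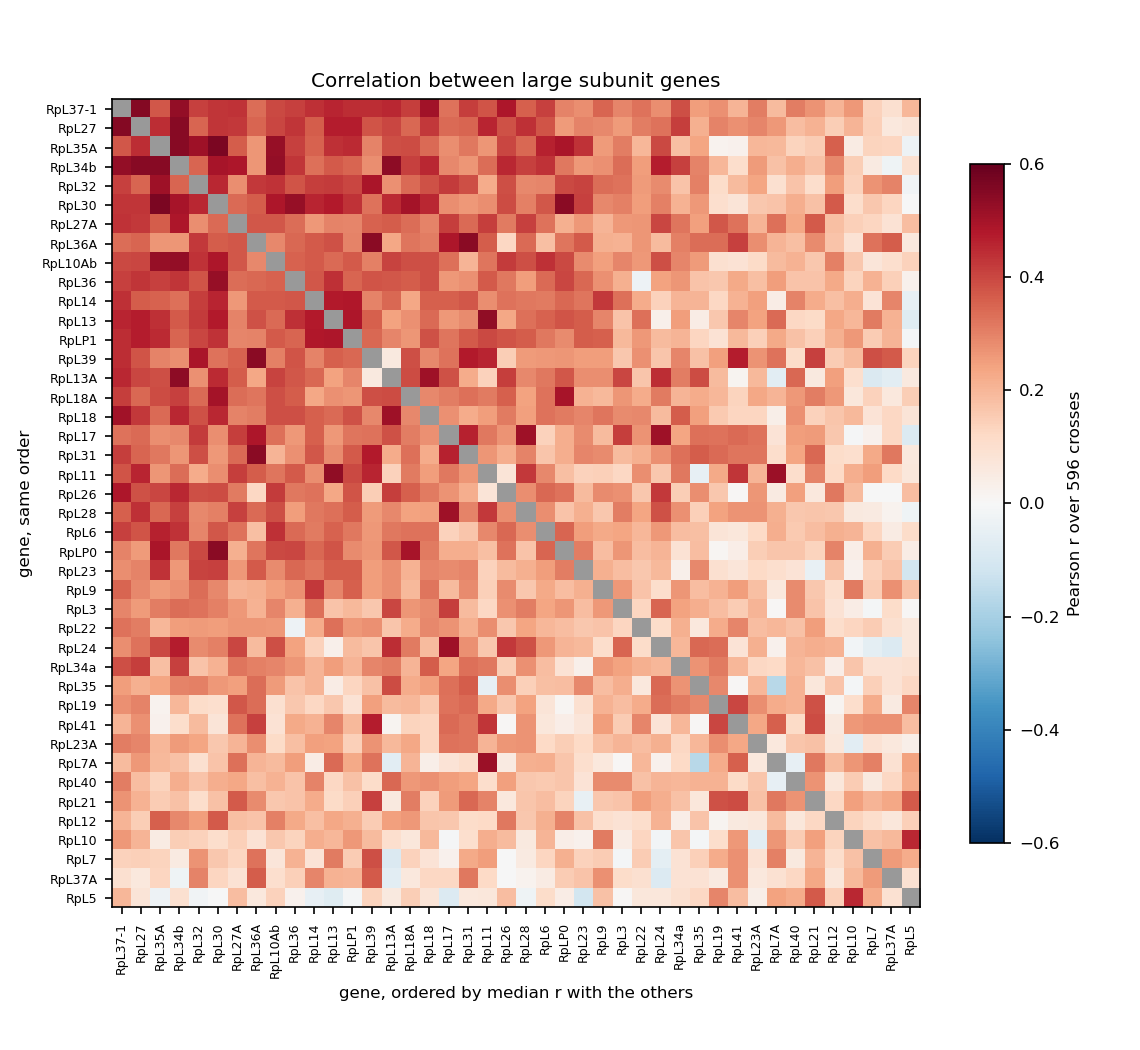
Pearson r over 596 crosses between each pair of the 42 large subunit genes, ordered from the highest median r (RpL37-1) to the lowest (RpL5), with red for positive and blue for negative r and grey on the diagonal. Nearly the whole map is red, 834 of 861 pairs lie above 0, and the pale rows at the end belong to RpL5, RpL37A, RpL7 and RpL10.

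The mean score of the 42 genes in a cross ran from -1.48 through a median of -0.0070 to 1.59, with an SD of 0.512 over crosses. In the pA1 by pB2 crosses the lowest, median and highest were -1.46, -0.0086 and 1.39. In the pA2 by pB1 crosses they were -1.48, -0.0020 and 1.59. The kinds of cross thus overlapped over almost the whole range. Their near-equal centres were set beforehand, because the authors had removed subpopulation. In the cross with the highest mean, of pA2 by pB1, all 42 genes stood above 0, from 0.534 for RpL37A to 2.53 for RpL7. In 1 of the 3 crosses with the lowest means, of pA1 by pB2, none of the 42 did, and the values ran from -2.36 for RpL35 to -0.226 for RpL26. At least 36 of the 42 genes stood above 0 in 31 crosses, and at most 6 did in 44. Single genes still left the group in extreme crosses: RpL35 was at 0.710 in the pA2 by pB1 cross where the mean was lowest and RpL19 was at -3.15.

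In the scores, this movement did not follow that of all genes. The median over all genes per cross ran from -0.286 to 0.632, and its r with the mean of the large subunit genes was -0.0069. In the order of the series, which follows the number of the maternal line, the lag 1 autocorrelation of the mean was 0.0291. The median over single genes was 0.0370, but a mean of 42 genes and a single gene are unlike measures. The authors had already removed principal components, and the order of hybridisation was not used. A batch or a movement shared by all genes was therefore not tested by these values. A first principal component of the 42 genes held 28.1% of their variance, and all 42 genes loaded on it with the same sign. The next 2 components held 7.33% and 5.47%.

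Pairs of genes on different chromosome arms and pairs on the same arm had much the same median r, 0.257 over 696 pairs against 0.251 over the others. In both kinds of cross 794 of the 861 pairs had an r above 0. The median r over pairs was 0.251 within pA1 by pB2 and 0.253 within pA2 by pB1.

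The genes with the highest median r with the other 41 were RpL37-1 (CG9091, 0.36 ± 0.022, SE from resampled crosses), RpL27 (CG4759, 0.35 ± 0.024), RpL35A (CG2099, 0.34 ± 0.024), RpL34b (CG9354, 0.33 ± 0.024) and RpL32 (CG7939, 0.33 ± 0.021). These 5 differ among themselves by little more than their errors, and their order depended on the setting. Within pA2 by pB1 alone RpL34b was highest (0.376, RpL37-1 0.350). After 10 further components RpL34b (0.301), RpL17 (0.290), RpL27 (0.286), RpL27A (0.285) and RpL36A (0.283) led, and RpL37-1 was at 0.254. RpL37-1 encodes a zinc-binding protein of the large subunit, and 40 of its 41 correlations with other large subunit genes were called positive. RpL32, known as rp49, is a gene to which fly expression measurements are commonly normalized, and its r with the mean of the other 41 genes was 0.60. Its highest correlate in the whole table was the small subunit gene RpS29, at r = 0.549.

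At the other end stood RpL5 (CG17489, median r 0.079 ± 0.023), RpL37A (CG5827, 0.12 ± 0.024), RpL7 (CG4897, 0.14 ± 0.025), RpL10 (CG17521, 0.15 ± 0.023) and RpL12 (CG3195, 0.17 ± 0.024). RpL5 was called positive with 17 of the other 41 genes, RpL37A with 22, RpL7 and RpL10 with 27 each and RpL12 with 32. After 10 further components the median r was 0.037 for RpL5, 0.038 for RpL10, 0.11 for RpL12 and RpL37A and 0.15 for RpL7, so that RpL5 and RpL10 were lowest. None of the 42 genes was called positive with all 41 others. Between these ends the other 32 genes had median r values from 0.183 for RpL21 to 0.325 for RpL30, and neighbours in this order differed by less than their combined errors.

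**Figure D2:**
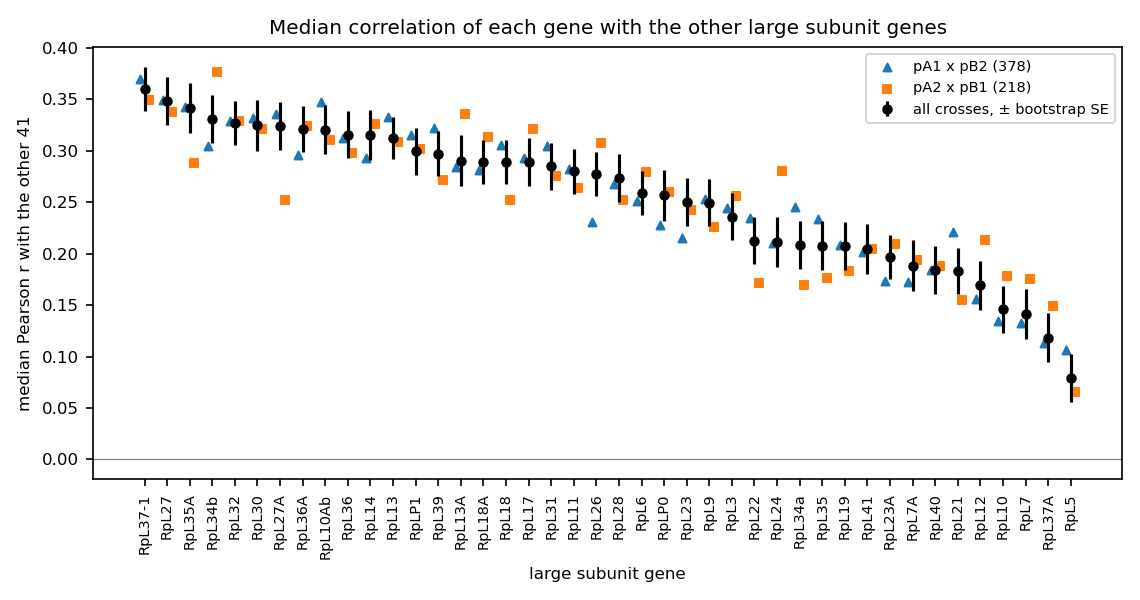
Median Pearson r of each large subunit gene with the other 41, for all crosses (black, ± SE from resampled crosses) and within pA1 by pB2 (blue triangles) and pA2 by pB1 (orange squares). RpL37-1 is highest at 0.36 and RpL5 lowest at 0.079, and the values of each kind of cross stay above 0 for every gene.

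The highest single pair was RpL30 with RpL35A, at r = 0.57 (rho = 0.53, permutation p = 1e-05, n = 596 crosses). RpL30 is known in yeast to control the splicing of its own transcript. The next were RpL27 with RpL37-1 (r = 0.55, rho = 0.55), RpL27 with RpL34b (r = 0.55, rho = 0.53) and RpL34b with RpL35A (r = 0.54, rho = 0.53). RpL30 with RpLP0 (r = 0.54, rho = 0.51) and RpL31 with RpL36A (r = 0.54, rho = 0.53) followed. Each of these 6 had a permutation p of 1e-05, the smallest that 100000 permutations can give, and an adjusted p over all pairs of 2.85e-07, the smallest that the permuted table can give. Without the 2 crosses farthest from the median they lay between 0.532 and 0.559. Within pA1 by pB2 and pA2 by pB1, r was 0.503 and 0.662 for RpL30 with RpL35A, 0.618 and 0.442 for RpL27 with RpL37-1, and 0.597 and 0.460 for RpL27 with RpL34b. For RpL34b with RpL35A it was 0.536 and 0.564, for RpL30 with RpLP0 0.509 and 0.598, and for RpL31 with RpL36A 0.533 and 0.554. None of these 6 differences between the kinds of cross passed the adjusted threshold.

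The lowest pair was RpL7A with RpL35, both on the X chromosome, at r = -0.17 (rho = -0.17, permutation p = 8e-05, adjusted p = 0.000808). Without the 2 farthest crosses r was -0.164, and within the kinds of cross it was -0.145 and -0.196. RpL7A and RpL35 were each positive with most other large subunit genes, 27 and 33 of 41. The call for the pair was not made within pA2 by pB1 alone, nor after 10 further principal components were removed, when r was -0.0339. Within pA2 by pB1 r was more negative than over all crosses, but fewer crosses there require a larger absolute r for a call. RpL5 with RpL23 followed (r = -0.11, rho = -0.10, permutation p = 0.00794, adjusted p = 0.0392, and -0.0818 and -0.161 within the kinds of cross, -0.111 without the 2 farthest crosses). RpL23 lies on the face of the large subunit that meets the small subunit. That call was lost with Spearman's rho, within each kind of cross alone, after 10 further components (r = -0.117), with the median over genes subtracted per cross and with the first row per gene. Within pA2 by pB1 and after 10 further components r was not weaker than over all crosses, although the call was lost. Next came RpL7 with RpL13A (r = -0.087, rho = -0.048, permutation p = 0.0343, adjusted p = 0.115, -0.0889 and -0.0839 within the kinds of cross, -0.0853 without the 2 farthest crosses), which was not called.

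By position on the ribosome, the stalk proteins recruit the elongation factors. RpLP0, which anchors the stalk, had a median r of 0.26 with the other genes, and the acidic protein RpLP1 had 0.30. RpL12 sits at the stalk base. All 3 pairs among them were called positive, where 85.9% of all pairs of large subunit genes were. Each had a permutation p of 1e-05. The r was 0.28 for RpLP0 with RpLP1 (rho = 0.30) and 0.30 for RpL12 with RpLP0 (rho = 0.29). For RpL12 with RpLP1 it was 0.21 (rho = 0.24). Within the kinds of cross the r values, in this order, were 0.255 and 0.357, 0.207 and 0.453, and 0.191 and 0.268. Without the 2 farthest crosses they were 0.282, 0.292 and 0.214. RpLP2, the partner of RpLP1, had no values here. After 10 further components RpL12 with RpLP1 was at 0.104 and was not called, and RpLP0 with RpLP1 was at 0.134 and was called.

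RpL5 and RpL11 bind the 5S rRNA together and join the ribosome with it as a particle. Their scores had an r of 0.067 (rho = 0.029, permutation p = 0.102, adjusted p = 0.247), which was not called. It was -0.0148 within pA1 by pB2 and 0.205, which was called, within pA2 by pB1 alone, and the difference between these was not called (adjusted p = 0.349). RpL11 itself was near the middle of the order, with a median r of 0.28, and its correlation with RpL7A was 0.51 (rho = 0.47, permutation p = 1e-05, 0.457 and 0.594 within the kinds of cross, 0.499 without the 2 farthest crosses). The pair of RpL7A and RpL11 was named after its value was seen.

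Proteins that line or surround the exit tunnel, RpL17, RpL19, RpL23A, RpL26, RpL31, RpL35 and RpL39, gave 21 pairs. All 21 were called positive, where 85.9% of all pairs of large subunit genes were. The r ran from 0.149 to 0.477. Its median was 0.280, beside 0.248 between these 7 genes and the other large subunit genes. These positions were assigned with earlier results known, and the counts are a description.

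Separate transcript rows of a gene were not interchangeable. For RpL5, the rows PA, PB and PG were identical and had a median r of 0.10 with the other genes, and 20 of 41 were called positive. The row PF of RpL5, which had an r of 0.633 with them, had a median r of 0.0144 with 12 of 41 called. For RpL10Ab, a protein of the L1 stalk, the row PA had a median r of 0.381 with 41 of 41 called positive, and the identical rows PD and PE had 0.260 with 35 of 41. RpL3, which reaches to the peptidyl transferase centre, had a median r of 0.205 in rows PA and PH, 0.124 in PD and 0.208 in PG, and the r between PA and PD was 0.269. The remaining 39 genes had 1 row each.

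The small subunit genes shared this movement. Of a list of 39 genes, 32 had values, and 1218 of their 1344 pairs with large subunit genes (90.6%) were called positive against the 11.8% of all gene pairs. Their median r with large subunit genes was 0.262, close to the 0.257 among the large subunit genes themselves. Of the 32 genes, 31 were called positive with at least 21 of the 42 large subunit genes, and the exception was RpS25 with 18. RpS16 had the highest mean r of any gene outside the large subunit (0.358, 42 of 42 positive), followed by RpS30 (0.335), RpS27 (0.331), RpS21 (0.322) and RpS18 (0.318). Among the 25 genes with the highest mean r, 22 were small subunit genes. The other 3 were Rack1 (0.301), whose product binds the small subunit, Nacalpha (0.280), part of the complex that meets the new chain at the tunnel exit, and the translation factor eEF5 (0.238).

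Across crosses the mean of the 32 small subunit genes ran from -1.81 through 0.0024 to 1.55. Its r with the mean of the large subunit genes was 0.915 (rho = 0.901), 0.914 without the 2 crosses farthest from the median, and 0.924 and 0.901 within pA1 by pB2 and pA2 by pB1. For the mean of 58 mitochondrial ribosome genes the r was 0.132 (rho = 0.128), 0.125 without the 2 farthest crosses, and 0.0931 and 0.203 within the kinds of cross. A mean over many genes averages out what belongs to each gene, so these values are a description beside the pair values and are not tested.

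**Figure D3:**
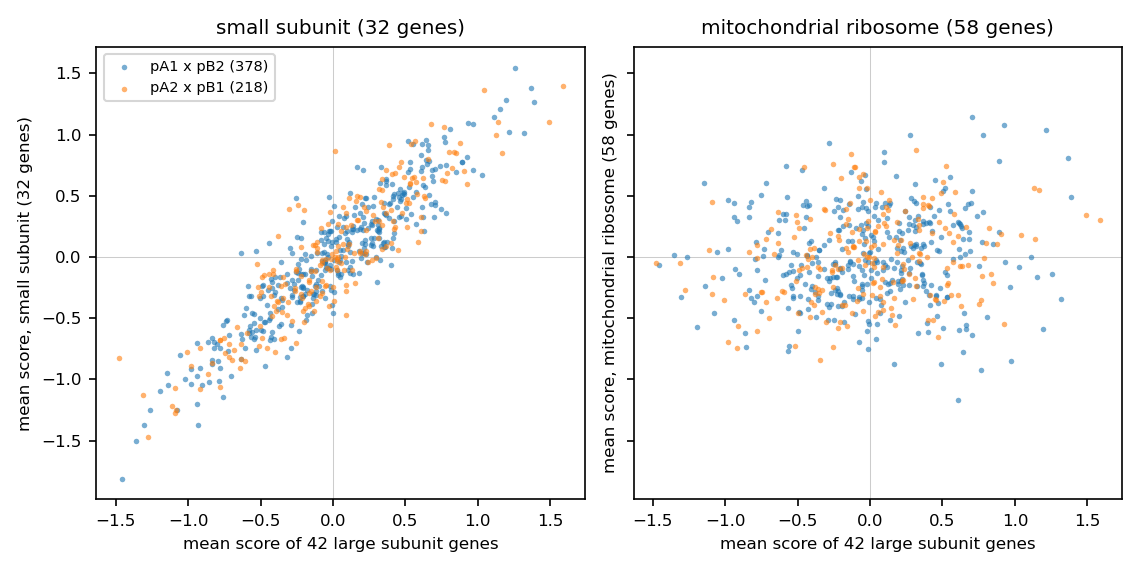
Mean score of the 42 large subunit genes (horizontal) against the mean of 32 small subunit genes (left) and 58 mitochondrial ribosome genes (right), 1 point per cross, blue for pA1 by pB2 and orange for pA2 by pB1. The left cloud is narrow (r = 0.915) in both kinds of cross, and the right cloud is nearly round (r = 0.132).

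For 27 of the 42 genes the highest correlate in the whole table was another large subunit gene, and for 9 it was a small subunit gene. A large subunit gene had a median of 5 other large subunit genes and 3 small subunit genes among its 10 highest correlates. For the other 6 it was neither. They were RpL37A with the initiation factor gene eIF1 (r = 0.38), RpL10 with apolpp (0.51), RpL12 with mib2 (0.41) and RpL34a, a paralog of RpL34b, with NdufA3 (0.44). RpL22 had CG13377 (0.46) and RpL13 had Rack1 (0.56).

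Other genes of protein synthesis were correlated with the large subunit genes in part. Of the elongation factor list, 7 of 8 genes had values, and 62.9% of their pairs with large subunit genes were called positive. After eEF5 came eEF1alpha1 (mean r 0.22, 35 of 42 positive) and eEF1gamma (0.20, 36 of 42), while eEF1alpha2 was at 0.0074 with 2 positive and 4 negative. Of 16 genes of ribosome assembly in the nucleolus and later, 15 had values, with 47.9% of pairs positive and 0.635% negative. Non1 (0.18, 38 of 42), Ns2 (0.13, 30 of 42) and nop5 (0.12, 24 of 42) led this list. RpL24-like, the only 1 of 5 listed paralogs of large subunit genes with values and a maturation factor in the nucleolus, was called positive with 34 of the 42 genes.

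The mitochondrial ribosome, built from separate nuclear genes, stood near the background. Its 58 genes of 73 with values gave 15.8% of pairs positive and 5.91% negative, with a median r of 0.0243. The highest mean r was 0.10 for mRpL23, then 0.096 for mRpL51 and 0.096 for mRpL40, and mRpL23 was the only gene of the list called positive with at least 21 large subunit genes.

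Among 13 regulators of growth and of ribosomal protein genes, 11 had values, with 22.9% of pairs positive and 10.8% negative. Thor, the 4E-BP that holds back cap-dependent translation, was positive with 31 of 42 genes (mean r 0.14), and Myc, a transcription factor that drives ribosome production, with 30 (0.13). M1BP, a factor that binds promoters of ribosomal protein genes, was negative with 20 of 42 genes and positive with none (mean r -0.093). The target of rapamycin kinase gene mTor was at -0.046 with 6 negative. Over all 7380 other genes, 3.70% were called positive and 1.99% negative with at least 21 large subunit genes. The lowest were Roc1b, a RING subunit of ubiquitin ligases (mean r -0.19, 35 of 42 negative), MsrA, which repairs oxidised methionine (-0.18, 38 negative), and the tetraspanin Tsp42Ed (-0.17, 32 negative).

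Markers of head cell types had far smaller shares of positive pairs with the large subunit genes than the small subunit genes had, but those of muscle, fat body, photoreceptors and neurons lay above the 11.8% of all gene pairs. Muscle markers (6 of 6 with values) had 32.9% of pairs positive and 3.97% negative, led by wupA (mean r 0.12, 22 of 42 positive), Mhc (0.12, 28 positive) and up (0.066). Fat body markers (5 of 7) had 29.5% positive and 6.19% negative, with Yp3 at 0.13 (29 positive), Yp1 at 0.067 and to at -0.048. Photoreceptor markers (5 of 7) had 20% positive and 9.05% negative, with inaD at 0.068, Arr2 at 0.018 and ninaE at 0.013. Neuron markers (6 of 6) had 18.7% positive and 8.33% negative, with Syt1 at 0.11, nSyb at 0.075 and brp at -0.028. Glia markers (3 of 6) had 11.9% positive and 8.73% negative, with wrapper at -0.065, moody at 0.034 and Gs2 at 0.030. Over all gene pairs 9.56% were negative. Mean r was above 0 for 5 of 6 muscle, 4 of 5 fat body, 5 of 5 photoreceptor, 3 of 6 neuron and 2 of 3 glia markers. Act88F was at -0.049, elav at -0.025 and Syn at -0.024, and ninaC had 11 positive and 10 negative pairs. Neither blood cell marker with values of the 4 listed had a positive call, and 20.2% of their pairs were negative, with mean r values of -0.071 for NimC1 and -0.040 for Pxn. The part of cell type composition in the correlations of the large subunit genes was not tested.

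**Figure D4:**
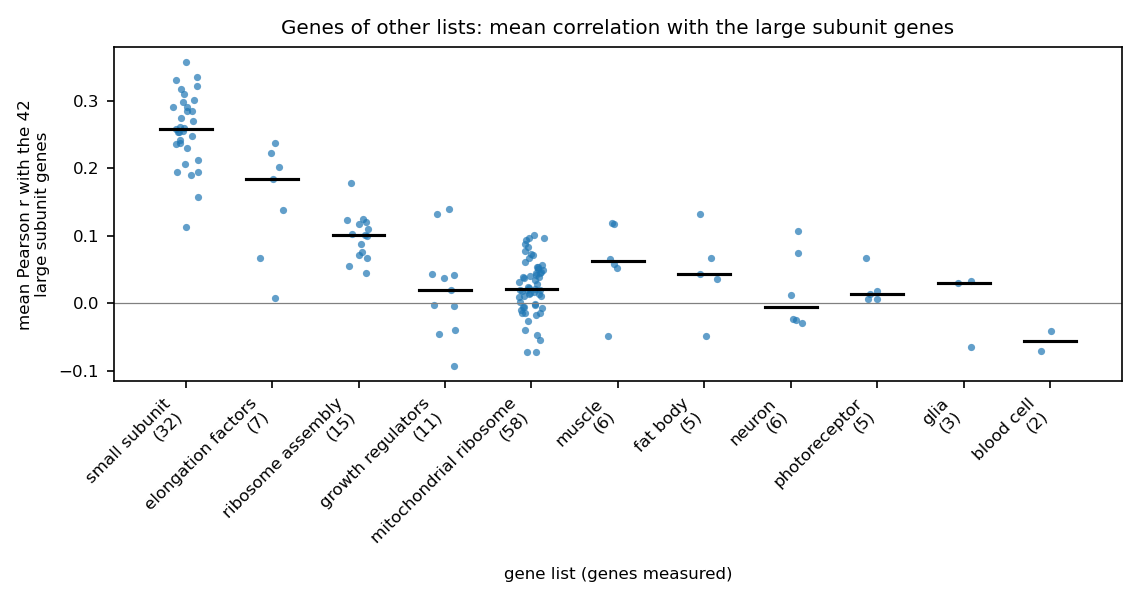
Mean Pearson r of each gene of 11 other lists with the 42 large subunit genes, 1 point per gene, with a bar at the median of each list and the number of genes with values in brackets. All 32 small subunit genes lie above 0.11, elongation factors and ribosome assembly genes follow, and the medians of the remaining lists lie nearer 0, with single genes such as Yp3 (0.13), wupA (0.12) and Syt1 (0.11) among the values of ribosome assembly genes.

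RpL5 and RpL10 had highest correlates largely outside the ribosomal protein genes, which are described here by gene order. Between RpL5 and the centromere end of 2L lie 13 protein-coding genes, and between RpL21 and that end 16. RpL10, a protein near the peptidyl transferase centre that joins late in the cytoplasm, has 35 between it and that end of 3L. RpL5 with RpL10 had an r of 0.451, higher than either had with any other large subunit gene. RpL5 was also correlated with RpS3A (0.467) and apolpp (0.444) on chromosome 4, as was RpL10 (0.416 and 0.515), and RpL21 with RpS3A at 0.419. RpL7A, far from the centromere end of the X chromosome, had an r of 0.410 with RpS3A as well. The 10 highest correlates of RpL21 still held 5 large and 4 small subunit genes. Chromosome 4 holds 75 genes of the table, 1.01% of all. Among the 50 highest correlates, 6 of RpL5, 5 of RpL10 and 4 of RpL21 lay there, against at most 1 for each of the other 39 genes. Of genes within 50 of the centromere ends of other arms, the 50 highest correlates held 5 for RpL10, and 2 each for RpL5 and RpL21, beside 3 each for RpL7A and RpL19. The median r with the 75 genes was 0.081 for RpL5 and 0.063 for RpL10, the highest of the 42, and -0.108 for RpL17, the lowest. Next came RpL12 (0.061), RpL37-1 (0.045) and RpL21 (0.044). Of the 75 genes, 27 were positive with RpL10, 23 each with RpL21 and RpL37-1, and 21 each with RpL5 and RpL13. RpL12, RpL37-1 and RpL13 lie 2672, 755 and 1398 genes from a centromere end, so these values were not particular to genes near it. Over the pairs of a large subunit gene and a chromosome 4 gene 13.9% were positive, near the 12.0% of all pairs with chromosome 4 genes. These genes were singled out after their values were seen.

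RpL22, which encodes a protein on the outer face of the subunit, had 7 of its 10 highest correlates within 200 genes on the X chromosome. They were led by CG13377 (r = 0.463), CG13364 (0.445), CG32816 (0.442) and CG13362 (0.381). The other large subunit genes had at most 3 each within 200 genes on their own arms. No share over all genes of the table was computed for this count, and RpL22 was singled out after its values were seen. For the large subunit genes as a whole, pairs with a neighbour within 10 genes were called positive in 19.8% of 511 cases and negative in 12.7%, below the 25.7% and 15% over all neighbour pairs of the table.

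Whether correlations differed between the kinds of cross was tested on Fisher z, with the labels permuted and all gene pairs adjusted together. One pair of the 861 was called, 0.116% against 0.0725% of all gene pairs. It was RpL13A with RpL30, with r = 0.34 within pA1 by pB2 and 0.62 within pA2 by pB1 (adjusted p = 0.0463 by permutation). The call was not made with Spearman's rho (adjusted p = 0.0688) or after 10 further components (adjusted p = 0.245). Without adjustment 15.9% of the pairs had a p under 0.05, against 9.56% of all gene pairs, 71 of them higher in pA1 by pB2 and 66 higher in pA2 by pB1.

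The spread of scores was compared through the absolute deviation from the median of each kind of cross with limma, adjusted over 7422 genes. It differed for 3 of the 42 genes, where 19.3% of all genes passed. RpL10 was more spread in pA1 by pB2, where its scores ran from -3.15 through -0.0228 to 3.15, than in pA2 by pB1, where they ran from -2.11 through 0.0186 to 2.15. Its mean absolute deviation was 0.857 against 0.694 (difference 0.163 ± 0.0509, SE, adjusted p = 0.0129). RpLP1 was likewise more spread in pA1 by pB2, from -3.15 through 0.0041 to 3.15 against -2.36 through -0.0228 to 2.36, with mean absolute deviations of 0.851 and 0.694 (difference 0.157 ± 0.0508, adjusted p = 0.0168). RpL35A went the other way. It ran from -2.44 through -0.0062 to 2.81 in pA1 by pB2 and from -3.15 through -0.0062 to 3.15 in pA2 by pB1, with mean absolute deviations of 0.749 and 0.885 (difference -0.136 ± 0.0508, adjusted p = 0.0423). After 10 further components were removed none of these 3 was called, with adjusted p-values of 0.15 for RpL10, 0.212 for RpLP1 and 0.0789 for RpL35A. RpL35A was also not called with the median over genes subtracted per cross (adjusted p = 0.0525).

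For 45 crosses, all pA1 by pB2, the founder assigned to each parent was known from the study's genotype table. Of this table and of the study's list of cis positions only part was used here. Each gene was fitted on the founders at its own cis position or at that of the nearest gene with one, within 10 genes on its arm. Distance was counted from gene to gene, so the position itself can lie farther off. The fit was an overall F test adjusted over 4501 genes. Of 27 large subunit genes that could be fitted, 5 (18.5%) were associated with the founders, where 28.1% of the 4501 genes were. At most 1 of the 4501 genes was called in 100 joint permutations of the crosses. For genes fitted at a neighbour's position, 4 of 25 large subunit genes were called, against 24.5% of all such genes. In the part of the list used here RpL6 and RpL28 had a position of their own, which says nothing of the other genes. Which genes could be fitted, and how near, depends on that part. The positions were chosen by the study from values that include these crosses.

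RpLP1 had the smallest p, with founders explaining 36.4% of the variance (adjusted R squared, 43 crosses with an assignment, adjusted p = 0.00837). Crosses with founder A6 from the pA parent had RpLP1 scores from -0.247 through 0.944 to 2.24 (10 crosses), and those with A3 from -1.50 through -0.568 to 0.689 (11 crosses). From the pB parent, the 6 crosses with B6 ran from 0.234 through 1.05 to 2.20 and the 4 with B7 from -1.45 through -0.716 to 0.281. The A classes overlapped, and so, by little, did the B classes.

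RpL6 at its own position had 33% (44 crosses, adjusted p = 0.0131). The 25 crosses with A4 ran from -1.24 through -0.299 to 1.22, and the 4 with A3 from 0.689 through 1.15 to 1.87, so these classes overlapped. RpL28 at its own position had 8.85% (32 crosses) and was not called (adjusted p = 0.417).

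RpL23A, which binds the rRNA beside the tunnel exit, had 33.9% (38 crosses, adjusted p = 0.0309). The 8 crosses with A5 ran from -1.36 through -0.934 to 0.0041 and the 15 with A2 from -0.893 through 0.459 to 3.15. The 3 crosses with B4, from -1.36 to -0.899, did not overlap the 12 with B6, from -0.587 to 3.15, nor those with B3 or B5. They overlapped those with B7 and B8. A class of 3 crosses is small, and single classes were not compared by a test. Every fitted cross stands in both an A and a B class, so the A and B ranges share crosses. The part of each parent was not tested. RpL7A had 37.7% (36 crosses, adjusted p = 0.0309), with medians of -0.360 in 9 crosses with A5 and 0.382 in 15 with A2, and of 0.863 in 15 crosses with B7 and -0.587 in 4 with B2. RpL36 had 22.9% (44 crosses, adjusted p = 0.0496), with a median of 0.627 in 29 crosses with B1 and -0.454 in 13 with B7, and ranges that overlapped. Under the alternatives RpL6 was called each time, and RpLP1 each time it could be fitted. RpL23A was not called after 10 further components (adjusted p = 0.141). RpL7A was not called with uncertain assignments as a class (0.146) or with the median over genes subtracted (0.0695), and RpL36 not with that subtraction (0.0654) or after 10 further components (0.254), all adjusted p-values.

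**Figure D5:**
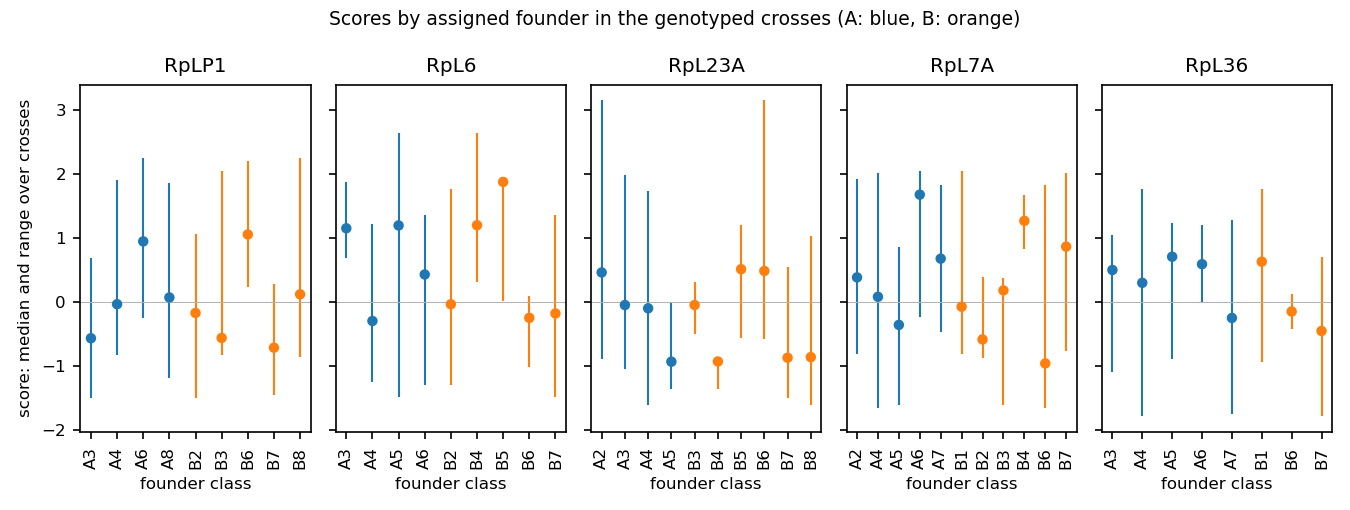
Scores of the 5 large subunit genes associated with founders, by the founder assigned to the pA parent (blue) and the pB parent (orange), with the median as a point and the lowest to highest cross as a line. A8 and B8 stand for the founder that both populations share. Every cross shown for a gene stands in both an A and a B class. RpLP1 is high with A6 and B6, and RpL23A is low with A5 and B4.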

How the data were processed

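Per the labels and the study's methods, the authors hybridised NimbleGen arrays, used the oligo package and RMA, left out probes affected by sequence variants, and averaged transcripts of a gene that were nearly identical. They rank-transformed each transcript to a normal shape, regressed out subpopulation and 10 principal components, and rank-transformed the residuals once more, so the deposited values are a score with no level or log2 unit. Shared variation along those components had therefore been removed before the correlations were computed, and no array date or hybridisation batch was used here. The number of crosses limits the precision. Per the study, only transcripts expressed above background were kept for mapping, and 11064 transcripts were tested. The table used here has 11064 rows. The scores themselves do not show signal over background.

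Groups came from the numbers of the maternal and paternal lines. Transcript rows were averaged per gene. Pearson r was computed for all gene pairs, with p from 10 permutations of the whole table (3 for the alternatives), and single pairs were tested with 100000 permutations. Differences between the kinds of cross used 10 permutations of the labels. Spread was tested with limma 3.58.1 in R 4.3.3, and founders by least squares with an F test, with no founder in fewer than 2 crosses and no gene with fewer than 20. Benjamini-Hochberg adjustment covered all features of each test. Standard errors came from 1000 draws of crosses with replacement. Gene symbols and gene order came from the gene table of genome Release 6, in which 7349 of 7422 genes matched, and no positions are given. No sequences were used here. The members and lists were chosen with earlier results of these data known. Genes named are the 5 highest and 5 lowest by median r, the 6 highest and 3 lowest pairs, the stalk genes, genes with a called spread or founder result, the 5 highest and 3 lowest non-members and the 3 leading genes of each list, and others as said in the text. On simulated data of 7422 genes, 99.5% of pairs made with r = 0.25 were called and 4.92% of calls were false. All genes with an SD ratio of 1.5 were called, with 8 false calls. That ratio is larger than for the large subunit genes called for spread, such as RpL10 with SDs of 1.08 and 0.848. Smaller ratios were not simulated. The founder fit called 46.7% of 200 genes given 40 percent of the variance, with 8 false calls among 4501 genes, so associations of that size can be missed. Scripts ran in Python 3.11.15 with matplotlib 3.10.9, scipy 1.17.1, pandas 2.3.3 and numpy 2.4.6.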

Additional observations from a re-analysis of the deposited data

Results flagged for a closer look

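The correlation of RpL13A with RpL30 differed between the kinds of cross by the test of the difference itself (Fisher z -0.370 for pA1 by pB2 minus pA2 by pB1, adjusted p = 0.0463 by permutation). The r was 0.34 and 0.62. It was the only pair of 861 called, a share of 0.116%, near the 0.0725% of all gene pairs. By the same permutation test the adjusted p was 0.0688 with Spearman's rho and 0.245 after 10 further components. Other pairs were called under those settings.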

How the results depend on the processing

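The share of pairs of large subunit genes called positive lay between 61.6% (pA2 by pB1 alone) and 89.3% (without RpL5, RpL10 and RpL21, added after seeing the data) under all alternatives. In pA2 by pB1 alone, with 36.6% of the crosses, the median r over pairs was 0.253, near the 0.257 over all crosses. Over all gene pairs, 3.49% were called positive in pA2 by pB1 alone and 3.92% after 10 further components, when 71.2% of the large subunit pairs were. The share of pairs with small subunit genes lay between 69.9% and 91.6%. The median r of 0.257 moved to 0.195 after 10 further components were removed, to 0.232 without the 10 crosses farthest from 0 and to 0.272 without RpL5, RpL10 and RpL21. The number of genes whose spread differed fell from 3 to 1 after 10 further components, which was RpL18 and none of the 3. With Spearman's rho 2 pairs instead of 1 differed between the kinds of cross, RpL14 with RpL26 and RpL24 with RpLP0. After 10 further components the 1 pair called was RpL24 with RpLP0 (adjusted p = 0.0400 by permutation). The pair called thus changed with the setting, and no share over all gene pairs is given for these settings. Founder associations numbered 2 when the gene with the position had to lie within 3 genes, where 11 large subunit genes could be fitted. They numbered 3 when the median over genes was subtracted per cross. Of all genes fitted, 30.7% and 28.7% were called in these settings. The r of RpL5 with RpL11 turned to -0.0148 within pA1 by pB2. Of 425 single values tried, 95 median r values moved by over an SE, and of the pair and founder values 16 lost and 2 gained a call and 1 turned. Values that kept their call could still move, as r of RpL12 with RpLP0 did from 0.296 to 0.453 in pA2 by pB1 alone. A call within a kind of cross rests on fewer crosses and so needs a larger absolute r. The cause of these changes was otherwise not tested. No paired analysis was possible because each cross has its own lines and the replicate numbers are accession order. A founder class held as few as 2 crosses, which limits those fits.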
